A study of Homo sapiens with 4 samples.

Results

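The replication-dependent histone genes encode the core histones H2A, H2B, H3 and H4 and the linker histone H1 that package newly copied DNA. A list of 44 of these genes was looked up in the array's platform annotation by Entrez identifier, and 39 had a named probe set, 1 each, out of 15870 genes named on the array. The 5 without one, H2AC16, H2AC17, H3C6, H3C8 and H3C12, were not analysed here. Membership rested on gene names, though the list was chosen with earlier results of these data known. Total RNA came from MDA-MB-231, an established human breast carcinoma line, on 2 arrays of cells labelled shDROSHA, a hairpin construct against the microRNA-processing nuclease DROSHA, and 2 arrays of control cells labelled shNC. All cells grew in L-15 medium with serum, penicillin and streptomycin. The series' design text calls the control mock-transfected and the labels call it shNC. The sources do not state how the hairpins were delivered or whether the lines were clones or pools. The titles call the replicates biological, with nothing said of separate cultures, so that p-values measure the spread between these arrays.

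DROSHA checked the labels: its log2 signal was 8.71 and 8.74 in the shDROSHA arrays against 9.66 and 9.76 in the shNC arrays, a log2 fold change of -0.99 (SE 0.0733, limma adjusted p = 3.89e-06, and 0.0843 with a constant prior variance). All 6 markers listed for MDA-MB-231, among them vimentin (VIM) and CD44, lay above the upper quartile of probe sets, although AXL rose (0.33) and CAV1 (-0.23) and MSN (-0.22) fell. Of the markers of other cells, 9 of 10 measured markers of blood, endothelium, muscle and liver lay below the median. The exception was ACTG2, a smooth muscle actin. None of those 10 changed, and their mean log2 level was 6.08 to 6.13 in shDROSHA and 6.03 to 6.05 in shNC arrays. The 4 measured genes of oestrogen-receptor-positive or epithelial breast cells, ESR1, EPCAM, GATA3 and FOXA1, were all below the median.

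Replication-dependent histone genes lie in clusters, chiefly on chromosome 6 and in smaller groups on chromosome 1, and most have no introns. Their mRNAs are the only known animal mRNAs that as a rule end in a conserved stem-loop in place of a poly(A) tail. Stem-loop binding protein (SLBP) recognises that hairpin, the U7 small nuclear ribonucleoprotein guides the cut behind it, and the mRNAs accumulate in S phase and are degraded at its end. Transcription of the clusters depends on NPAT, a target of cyclin E with CDK2. The labels name a WT amplification kit for the cDNA, without stating how it primed mRNAs that lack a poly(A) tail.

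Differences in histone mRNA were small, and more genes were lower than higher. Of the 39 measured genes, 28 had a lower mean in shDROSHA arrays (71.8%, against 49.8% of all 18603 probe sets), and 11 a higher one (50.2% of all probe sets). The count of lower genes was 26 and 29 when each array was centred on its median or quantile-normalized again. The median log2 fold change was -0.085, against 0.00086 over all probe sets, and it was -0.052 and -0.072 under those scalings. Single genes ranged from -0.22 (H2AC6) to 0.14 (H3C1). In limma with a prior variance that follows signal level (the trended fit), 1 member passed an adjusted p of 0.05, where 6.41% of all probe sets did. That gene, H2BC14, fell and 0 members rose, where 3.28% of all probe sets fell and 3.12% rose. At an adjusted p of 0.10 it was still the only one, where 9.8% of all probe sets passed. At an unadjusted p of 0.05 the trended fit had 7 lower members, against 10.1% of all probe sets, and 0 higher ones, against 9.24%. With a constant prior variance 0 members passed the adjusted p, where 0.00538% of all probe sets did. At the unadjusted p that fit had 0 lower and 0 higher members, where 8.11% of all probe sets were lower and 6.8% higher. Fewer cells in S phase and less histone mRNA per cell cannot be told apart in bulk RNA.

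The 95% interval of the log2 fold change lay inside -0.5 to 0.5 for 37 of the 39 genes. The other two were the dim probe sets of H2BC7 (-0.58 to 0.23) and H4C13 (-0.54 to 0.41). Both shDROSHA arrays lay below both shNC arrays at 18 genes and above them at 2, H2AC13 and H3C11, against 24.4% and 23.4% of all probe sets and 47.8% in either direction. With each array centred on its median these counts were 11 and 4, against 19.5% and 29.2% of all probe sets. The difference between group means was larger than the range within both groups at 16 genes (41.0%, against 35.8% of all probe sets), and 15 of those 16 were lower. The medians of the H1, H2A, H2B and H4 classes stayed below 0, and that of H3 above 0, under both scalings.

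**Figure D1:**
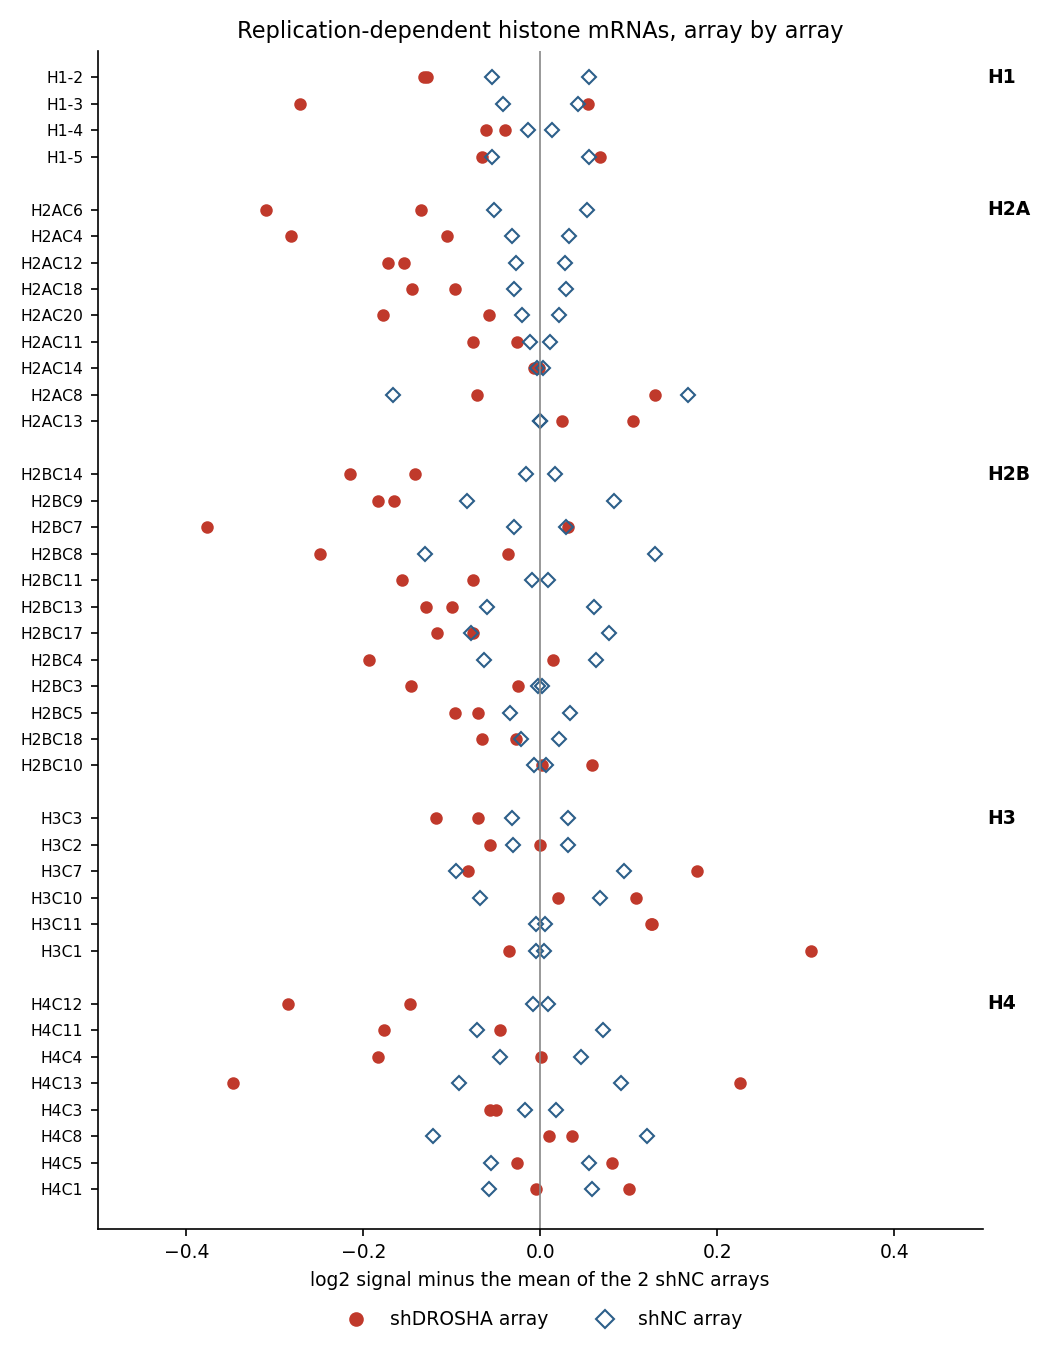
Each row is a histone gene, sorted by difference within its class, and the horizontal axis gives log2 signal minus the mean of the 2 shNC arrays. Filled circles are shDROSHA arrays and open diamonds shNC arrays. H2A and H2B circles lie mostly to the left of the diamonds, while H3 circles fall on both sides. H2BC14 shows a gap between groups, and H2AC12 and H4C12, not called, show gaps at least as wide.

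H2B histones pair with H2A in the nucleosome and carry a C-terminal lysine that is ubiquitylated during transcription. Of 12 measured H2B genes 11 were lower and 1, H2BC10, was higher, with a median log2 fold change of -0.11. H2BC14 had log2 signals of 11.53 and 11.45 in shDROSHA arrays and 11.68 and 11.65 in shNC arrays. The groups were 0.13 apart at their nearest arrays, more than either group's own range. The means were 11.49 ± 0.0514 in shDROSHA and 11.67 ± 0.0230 in shNC (log2 mean ± SD, n = 2 each), a fall of 11.6% (log2 fold change -0.18, SE 0.0440, 95% interval -0.27 to -0.084, limma adjusted p = 0.0264). The call did not hold in every setting. It was lost without shDROSHA replicate 2 (-0.14, adjusted p = 0.112), without shNC replicate 1 (-0.16, adjusted p = 0.191), without shNC replicate 2 (-0.19, adjusted p = 0.0735), with median centring (-0.15, adjusted p = 0.0819) and with the constant prior (adjusted p = 0.395).

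The remaining H2B genes missed the threshold, and H2BC11 and H2BC9 are named after their values were seen. H2BC11 had 10.54 and 10.62 in shDROSHA against 10.69 and 10.71 in shNC arrays, with no overlap (log2 fold change -0.12, adjusted p = 0.243). H2BC9 had 8.76 and 8.77 in shDROSHA against 8.86 and 9.02 in shNC arrays (-0.17, adjusted p = 0.273). Both were separated by less than 0.1 log2 units. H2BC18, on chromosome 1, had 12.69 and 12.66 in shDROSHA against 12.70 and 12.74 in shNC arrays, apart by 0.0061 at their nearest arrays (-0.046, interval -0.12 to 0.028). H2BC10, a dim probe set, had 5.26 and 5.31 in shDROSHA and 5.25 and 5.26 in shNC arrays, and its interval ran from -0.34 to 0.40.

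H2A histones carry the acidic patch to which many chromatin factors bind. Of 9 measured H2A genes 7 were lower and 2 higher (median -0.12), and 0 were called by limma, where 6.41% of all probe sets were. An unadjusted p under 0.05 was found for 4, where 19.3% of all probe sets had one. H2AC6, also named after its values were seen, had 8.49 and 8.31 in shDROSHA against 8.68 and 8.57 in shNC arrays (-0.22, SE 0.0925, adjusted p = 0.193). H2AC4 had 10.17 and 10.00 in shDROSHA against 10.31 and 10.25 in shNC arrays (-0.19, SE 0.0664, adjusted p = 0.110). In both, shDROSHA replicate 2 was the lowest of the 4 arrays. On chromosome 1, H2AC18 had 11.76 and 11.71 in shDROSHA against 11.83 and 11.88 in shNC arrays (-0.12, adjusted p = 0.115). H2AC20 had 12.24 and 12.12 in shDROSHA against 12.28 and 12.32 in shNC arrays (-0.12, adjusted p = 0.135). Quantile normalization again brought H2AC18 (adjusted p = 0.0377) and H2AC20 (adjusted p = 0.0291) past the threshold, while median centring took H2AC18 to -0.087 (adjusted p = 0.317) and H2AC20 to -0.085 (adjusted p = 0.343). Without shDROSHA replicate 2 H2AC20 was at -0.058 (adjusted p = 0.618).

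At the other end, H2AC14 was level. Its signals were 12.65 and 12.64 in shDROSHA and 12.64 and 12.65 in shNC arrays (-0.0040, interval -0.075 to 0.067). H2AC13 was higher in both shDROSHA arrays, at 11.80 and 11.88 against 11.77 and 11.77 in shNC arrays (0.065, adjusted p = 0.455). The dimmest H2A probe set, H2AC8, had 4.93 and 4.73 in shDROSHA and 4.63 and 4.97 in shNC arrays, with overlapping groups.

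H4, the most conserved core histone, is encoded by many genes for the same protein. Of 8 measured H4 genes 5 were lower and 3 higher (median -0.057, and -0.024 with median centring). By limma 0 of them were called, where 6.41% of all probe sets were. An unadjusted p under 0.05 was found for 1, H4C12, where 19.3% of all probe sets had one. H4C12 had 9.03 and 8.89 in shDROSHA against 9.19 and 9.17 in shNC arrays. Both knockdown arrays lay below both controls, and the log2 fold change was -0.22 (SE 0.0775, interval -0.38 to -0.050, adjusted p = 0.126). H4C3 had 12.61 and 12.60 in shDROSHA against 12.64 and 12.67 in shNC arrays (-0.054, adjusted p = 0.438). H4C1 had 9.18 and 9.07 in shDROSHA and 9.02 and 9.13 in shNC arrays, which overlap (0.048, adjusted p = 0.817). H4C13 had 4.67 and 4.10 in shDROSHA and 4.54 and 4.35 in shNC arrays, so its replicates differed more than its groups.

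H3 histones carry the tail lysines whose methylation and acetylation mark chromatin states. They leaned the other way: 2 of 6 were lower and 4 higher, with a median of 0.056 (0.089 with median centring). By limma 0 passed the adjusted p, where 6.41% of all probe sets did. At an unadjusted p of 0.05 there were 0, where 19.3% of all probe sets passed. Whether H3 differs from the other classes was not tested. H3C1 had 9.24 and 8.90 in shDROSHA and 8.94 and 8.93 in shNC arrays. Only shDROSHA replicate 1 stood above the controls (0.14, SE 0.0984, adjusted p = 0.511). The log2 fold change was -0.035 without that array, against 0.31 without shDROSHA replicate 2. H3C11 had 6.77 and 6.77 in shDROSHA against 6.64 and 6.64 in shNC arrays. The replicates of both groups nearly coincided, but the residual SD of probe sets in its signal bin was 0.137, and the fit gave an SE of 0.135 (log2 fold change 0.13, adjusted p = 0.695). H3C10 (0.064) and H3C7 (0.048) overlapped between groups. H3C2 had 10.47 and 10.41 in shDROSHA and 10.44 and 10.50 in shNC arrays, also overlapping (-0.029).

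H1 histones bind the linker DNA between nucleosomes. Of the 4 genes 3 were lower, with a median of -0.080 (-0.047 with median centring). By limma 0 passed the adjusted p, where 6.41% of all probe sets did. At an unadjusted p of 0.05 there were 0, where 19.3% of all probe sets passed. H1-2 had 10.05 and 10.05 in shDROSHA against 10.12 and 10.23 in shNC arrays (-0.13, SE 0.0606, adjusted p = 0.260). H1-4 averaged 12.96 ± 0.0154 in shDROSHA and 13.01 ± 0.0193 in shNC arrays (log2 mean ± SD, n = 2 each, log2 fold change -0.051, limma adjusted p = 0.426). The groups were apart for both by under 0.1 log2 units. H1-3 had 6.37 and 6.70 in shDROSHA and 6.60 and 6.69 in shNC arrays, and H1-5 had 8.06 and 8.19 in shDROSHA and 8.18 and 8.07 in shNC arrays. Both overlapped, with log2 fold changes of -0.11 and 0.00092.

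Promoters of these classes differ in their letters, and 39 of the 44 listed genes had a RefSeq promoter (GRCh38.p14), 35 of them measured. The 150 bases before the start site are shown 5′ to 3′ for H2BC14, which fell, for H2BC12, a further H2B gene that fell and is described below, for H4C12 and H1-2, which were lower without passing, and for H3C1, which was higher without passing. Capitals mark 4 motifs searched on both strands: the octamer ATTTGCAT, read by OCT1, CCAAT, read by NF-Y, the TATA box TATAAA, and the H1 box AAACACA.
H2BC14, chr6:27814872-27815021, plus strand: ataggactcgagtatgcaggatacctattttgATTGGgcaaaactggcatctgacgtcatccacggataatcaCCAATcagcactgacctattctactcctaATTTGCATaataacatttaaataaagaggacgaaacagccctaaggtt
H2BC12, chr6:27146859-27147008, minus strand: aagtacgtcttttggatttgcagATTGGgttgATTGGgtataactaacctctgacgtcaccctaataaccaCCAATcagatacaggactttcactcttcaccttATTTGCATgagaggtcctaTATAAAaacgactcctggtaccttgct
H4C12, chr6:27831561-27831710, minus strand: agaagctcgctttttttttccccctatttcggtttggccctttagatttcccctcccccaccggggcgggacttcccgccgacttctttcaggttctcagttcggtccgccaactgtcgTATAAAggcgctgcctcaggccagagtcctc
H1-2, chr6:26056471-26056620, minus strand: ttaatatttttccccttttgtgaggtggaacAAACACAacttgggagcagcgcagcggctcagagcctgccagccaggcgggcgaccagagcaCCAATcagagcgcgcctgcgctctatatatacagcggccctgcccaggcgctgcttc
H3C1, chr6:26020301-26020450, plus strand: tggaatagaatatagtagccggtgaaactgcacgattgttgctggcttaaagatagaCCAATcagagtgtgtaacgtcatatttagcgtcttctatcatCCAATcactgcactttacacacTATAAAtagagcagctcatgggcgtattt

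In the 250 bases before the start, the octamer was present at 10 of 12 H2B and 8 of 10 H2A promoters and at 0 of the H1, H3 and H4 promoters, against 1.66% of all 27305 promoters. Where neighbouring genes start close together on opposite strands, their windows overlap, and a match was counted for both. This held for the octamer of H2AC14 and H2BC14, H2AC11 and H2BC11, H2AC8 and H2BC8, H2AC6 and H2BC4, and H2AC17 and H2BC17. The H1 box was at 4 of 4 H1 promoters and at 0 of the other members, against 4.95% of all promoters. CCAAT was at 34 of 39 members (33.0% of all promoters), the exceptions being 5 of the 6 H4 promoters, and TATAAA at 28 of 39 (11.1% of all promoters). Matches of different motifs did not overlap in any member's promoter. Of 16 measured genes with an octamer, shared sites counted for each gene, 14 were lower, with a median log2 fold change of -0.11. Of 19 without it 12 were lower, with a median of -0.061. The octamer nearly coincides with the H2A and H2B classes, so these shares cannot be told apart from those of the classes.

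Several H2A and H2B genes lie head to head, with their start sites close together on opposite strands. Among measured members 5 such pairs had start sites 233 to 248 bases apart. H2BC14 (-0.18) faces H2AC14 (-0.0040), so the member that fell and a nearly level one are neighbours. H2AC6 (-0.22) faces H2BC4 (-0.090), H2AC11 (-0.052) faces H2BC11 (-0.12), H2AC13 (0.065) faces H2BC13 (-0.11), and H2AC8 (0.029) faces H2BC8 (-0.14). Both genes were lower in 3 of the 5 pairs, though H2AC14 turned positive with median centring and H2BC4 without shDROSHA replicate 2 (0.014), and in the other two the H2B gene was the lower one. The deposited values hold no probe sequences, and histone genes of a class are alike, so whether a probe set also reads a relative was not tested.

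Calls were more frequent among bright probe sets. In 5 equal bins of all probe sets by mean signal, dimmest to brightest, the trended fit called 0.833%, 1.94%, 4.70%, 8.92% and 15.6%. The members' bins held 4, 3, 5, 11 and 16 genes, and the call, H2BC14, lay in the brightest. In that bin 14 of 16 members were lower, where 44.3% of all probe sets of the bin were. The median log2 fold change there was -0.069 for members and 0.020 for all probe sets of the bin. In the other bins, dimmest first, 2 of 4, 2 of 3, 4 of 5 and 6 of 11 members were lower. Of all probe sets in those bins 46.9%, 49.4%, 54.6% and 53.7% were lower.

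**Figure D2:**
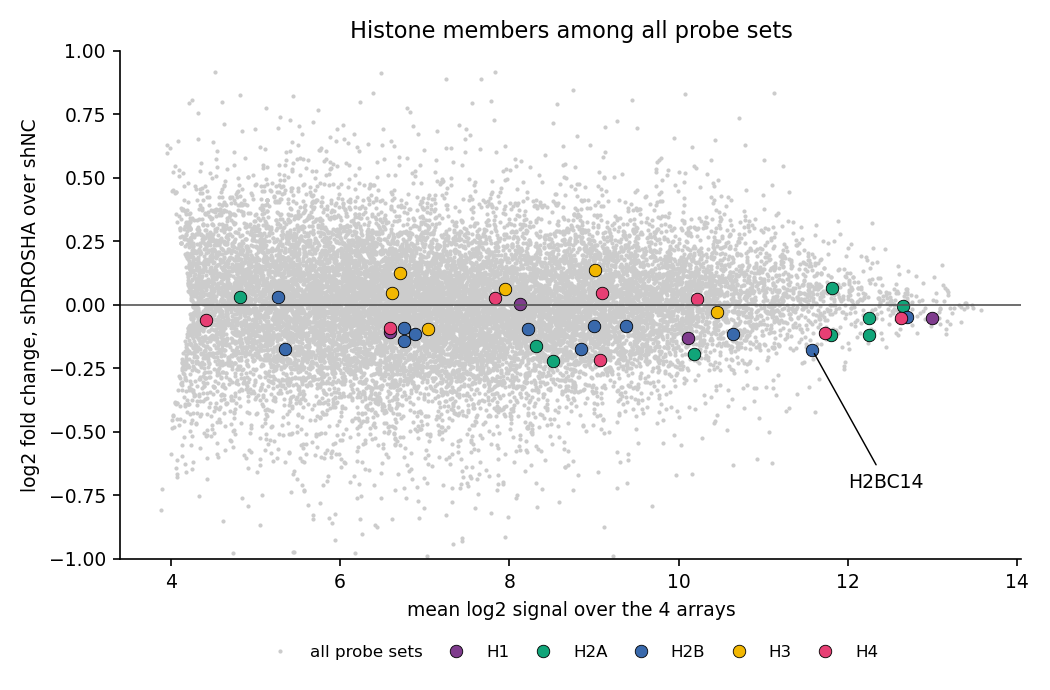
The log2 fold change of shDROSHA over shNC is plotted against mean log2 signal, with all probe sets in grey and histone genes coloured by class. The members keep within -0.22 to 0.14, the cloud narrows towards bright probe sets, H2BC14 lies towards its lower edge there, and 39 probe sets beyond 1 log2 unit are outside the plot.

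Other replication-dependent histones outside the list also shifted little. Of 26 listed genes 19 were measured and 13 were lower. By limma 1 fell and 0 rose, where 3.28% of all probe sets fell and 3.12% rose. The median log2 fold change was -0.056, and -0.023 with median centring and -0.076 with quantile normalization again. The gene that fell was H2BC12, an H2B gene of the chromosome 6 cluster, at 13.11 and 13.10 in shDROSHA against 13.21 and 13.22 in shNC arrays. Its replicates lay 0.0115 apart in shDROSHA and 0.0099 in shNC arrays, and the fall was small (-0.12, SE 0.0300, limma adjusted p = 0.0325). It was lost without shDROSHA replicate 2 (adjusted p = 0.0824), shNC replicate 1 (adjusted p = 0.167) or shNC replicate 2 (adjusted p = 0.172), with median centring (adjusted p = 0.175) and with the constant prior (adjusted p = 0.539). The widest differences of that list, named after their values were seen, were H2BC6 (-0.30, adjusted p = 0.220) and H1-6, a testis linker histone (0.29, adjusted p = 0.403).

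Replication-independent variants, whose polyadenylated mRNAs are made outside S phase too, were close to level. Of 10 measured 7 were lower, with a median of -0.0025 that turned to 0.031 with median centring and 0.0058 with quantile normalization again. By limma 0 were called, where 6.41% of all probe sets were. At an unadjusted p under 0.05, which 19.3% of all probe sets had, there was 1, MACROH2A1. That gene, a large H2A variant of silent chromatin, had 10.56 and 10.56 in shDROSHA against 10.70 and 10.70 in shNC arrays (-0.14, SE 0.0507, adjusted p = 0.136), and quantile normalization again gave it -0.18 (adjusted p = 0.0481) and median centring -0.10 (adjusted p = 0.297). H2AZ1, a variant at promoters, had 11.90 and 11.93 in shDROSHA and 11.87 and 11.90 in shNC arrays (0.030, adjusted p = 0.764). Its near relative H2AZ2 had 10.54 and 10.51 in shDROSHA and 10.53 and 10.66 in shNC arrays (-0.066, adjusted p = 0.601).

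Among factors that transcribe and process histone mRNA, SLBP stood out. Of 14 measured 1 rose and 0 fell, where 3.12% of all probe sets rose and 3.28% fell. The list's median was 0.030, and 0.063 with median centring. SLBP had 9.05 and 9.19 in shDROSHA against 8.53 and 8.80 in shNC arrays, both knockdown arrays above both controls. It rose 1.38-fold (log2 fold change 0.46, SE 0.0959, interval 0.26 to 0.67, limma adjusted p = 0.0102). The call was lost without shNC replicate 1 (0.33, adjusted p = 0.116) and with the constant prior (adjusted p = 0.238). The coactivator NPAT had 8.84 and 8.81 in shDROSHA against 8.89 and 8.99 in shNC arrays (-0.11, adjusted p = 0.487). CASP8AP2, also called FLASH, which works with NPAT and the U7 particle, had 8.98 and 9.05 in shDROSHA against 9.15 and 9.20 in shNC arrays (-0.17, adjusted p = 0.232). NPAT and CASP8AP2 were named after their values were seen, and neither passed. The U7 protein genes LSM10 (0.073) and LSM11 (0.011), named likewise, overlapped between groups.

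Of 12 measured genes of histone mRNA translation and decay 1 rose and 0 fell, where 3.12% of all probe sets rose and 3.28% fell. The list's median was 0.0044, and 0.037 with median centring and 0.042 with quantile normalization again. DCP2, the catalytic subunit that removes the mRNA cap before decay, had 8.46 and 8.67 in shDROSHA against 8.19 and 8.13 in shNC arrays. The groups were well apart, and it rose 1.32-fold (0.40, SE 0.0970, limma adjusted p = 0.0227). It was lost without shDROSHA replicate 2 (0.30, adjusted p = 0.113), shNC replicate 1 (0.44, adjusted p = 0.0642) or shNC replicate 2 (0.37, adjusted p = 0.105), and with the constant prior (adjusted p = 0.230). DCP2 acts on mRNAs in general.

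Of 18 measured histone chaperones and assembly factors 0 were called by limma, where 6.41% of all probe sets were. An unadjusted p under 0.05 was found for 5, 4 higher and 1 lower, where 19.3% of all probe sets had one. The median was 0.013, or 0.046 with median centring. SUPT16H, a subunit of the FACT chaperone, had 12.10 and 12.12 in shDROSHA against 12.01 and 11.99 in shNC arrays (0.11, adjusted p = 0.110). HJURP, which loads the centromeric H3 variant, had 11.68 and 11.71 in shDROSHA against 11.61 and 11.54 in shNC arrays (0.12, adjusted p = 0.112). Groups were apart at both. NAP1L1, a chaperone of H2A and H2B, had 11.65 and 11.74 in shDROSHA against 11.37 and 11.65 in shNC arrays (0.19, adjusted p = 0.133), with shNC replicate 1 low: the difference was 0.050 without that array. It was 0.23 without shDROSHA replicate 1 and 0.33 without shNC replicate 2. The shNC arrays of NAP1L1 lay 0.28 apart, a spread that did not enter the fit without shDROSHA replicate 1.

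**Figure D3:**
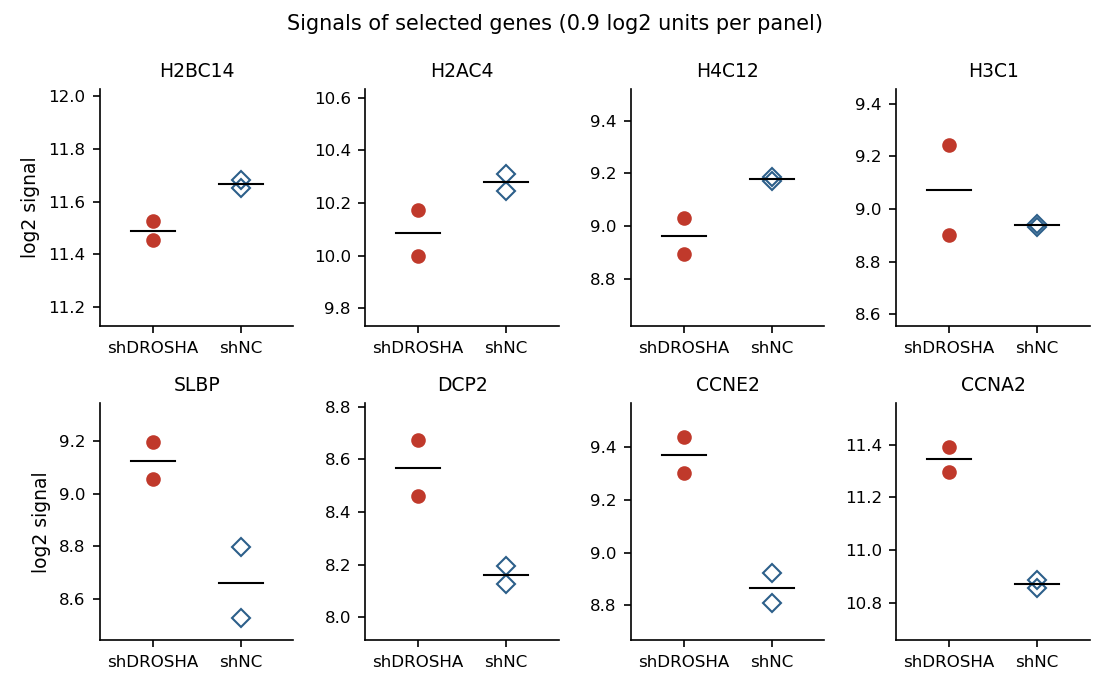
Log2 signals of 4 histone genes (top) and of SLBP, DCP2 and the cyclin genes CCNE2 and CCNA2 (bottom), with shDROSHA arrays on the left and shNC arrays on the right of each panel. Bars are group means and every panel spans 0.9 log2 units. H2BC14, H2AC4 and H4C12 lie lower in shDROSHA, H3C1 is split by 1 array, and the lower row shows higher shDROSHA signals.

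S phase and DNA replication genes, with which histone mRNAs normally accumulate, were more often higher in the same arrays. Of 21 measured 7 rose and 0 fell, where 3.12% of all probe sets rose and 3.28% fell. Most of these genes lay in the brightest signal bin, where calls were more frequent than over the whole array. There 15.6% of all probe sets were called in either direction, and 5.97% were called lower. A higher mean was found at 15 (50.2% of all probe sets), and the median log2 fold change was 0.096, against -0.085 for the histones. The S phase median was 0.13 with median centring and 0.054 with quantile normalization again. CCNE2, a cyclin of the G1/S transition, had 9.44 and 9.30 in shDROSHA against 8.81 and 8.92 in shNC arrays (0.50, SE 0.0795, limma adjusted p = 0.00179). CCNA2, the cyclin of S phase and G2, had 11.30 and 11.39 in shDROSHA against 10.85 and 10.89 in shNC arrays (0.47, SE 0.0494, adjusted p = 7.73e-05). MCM6, of the replicative helicase, had 8.98 and 8.93 in shDROSHA against 8.50 and 8.48 in shNC arrays (0.47, adjusted p = 0.00319). These 3 failed with the constant prior (limma adjusted p 0.170 to 0.181). When 1 array was left out, the log2 fold change was 0.44 to 0.57 for CCNE2, 0.43 to 0.52 for CCNA2 and 0.44 to 0.49 for MCM6.

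The others were smaller: TYMS (0.25), which makes thymidylate, CDC6 (0.22), which loads the helicase, PCNA (0.18), the polymerase clamp, and RRM1 (0.14), of ribonucleotide reductase. When 1 array was left out, RRM1 passed in none of the 4 fits (adjusted p 0.0711 to 0.293), TYMS without shDROSHA replicate 1 and without shNC replicate 2, PCNA only without shDROSHA replicate 1, and CDC6 in all but the fit without shNC replicate 1. With quantile normalization again CDC6, PCNA and RRM1 missed the threshold (adjusted p 0.0626 to 0.0704). CCNE1, the other E cyclin, singled out after its values were seen, had 7.64 and 7.32 in shDROSHA against 7.80 and 7.77 in shNC arrays (-0.30, adjusted p = 0.176). The difference between the histone and S phase lists was not tested.

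**Figure D4:**
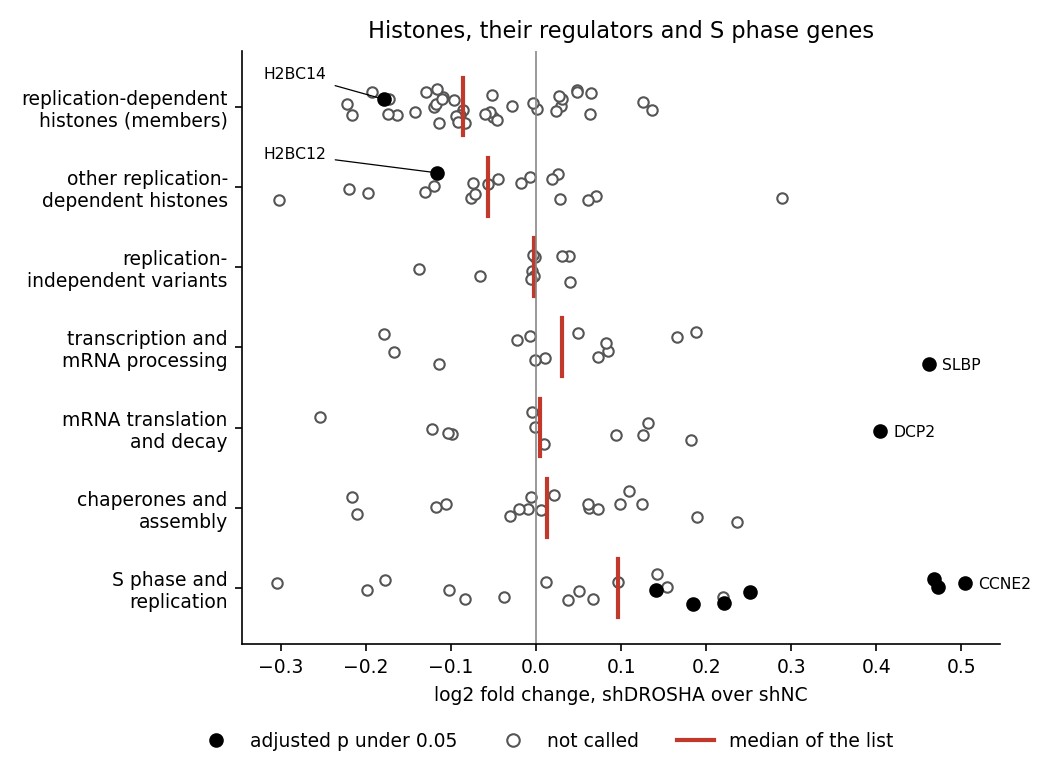
Each point is a gene, placed by its log2 fold change of shDROSHA over shNC, in 7 lists. Filled points passed an adjusted p of 0.05 in the trended fit, and red bars are list medians. The bar of the histone members lies at -0.085 and that of the S phase genes at 0.096, and SLBP and DCP2 stand to the right of their lists.

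The histones can be followed array by array. Relative to each gene's mean over the 4 arrays, the median histone lay at -0.023 and -0.043 in the shDROSHA arrays and at 0.012 and 0.059 in the shNC arrays. In the same order all probe sets lay at -0.0063, 0.0070, 0.0051 and -0.00062. Of the 39 histones 26 and 29 were below their own mean in the shDROSHA arrays, against 13 and 10 in the shNC arrays. When each array was left out in turn, 22 histones were lower in all 4 fits, 3 were higher in all 4, and 14 changed sign. Histones whose groups do not overlap, 18 lower and 2 higher, keep their sign in these fits by definition. The share over all probe sets is not given here.

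**Figure D5:**
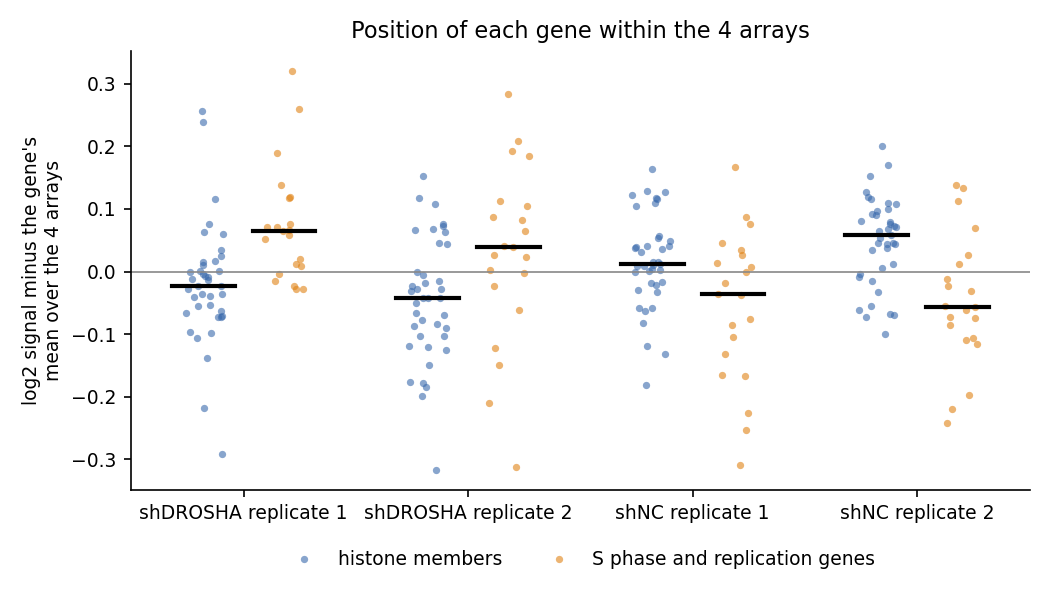
Points are genes, plotted for each array as log2 signal minus the gene's own mean over the 4 arrays, with black bars at the medians. Histone medians are below 0 in both shDROSHA arrays and above 0 in both shNC arrays, while medians of the S phase genes are on the opposite side in each array.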

How the data were processed

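The deposited log2 signals, 1 per probe set and array, were made by the authors with RMA, per the submitters' processing notes. RMA corrects background, equalises the distributions of arrays and summarises probes. Version, filters and genome build were not given in the sources used here. Because of that step a shift of most transcripts could go unseen, and signals of different probe sets are not compared as levels. The deposited arrays were not quite equal, with medians of 7.21 and 7.21 in shDROSHA against 7.25 and 7.24 in shNC. Median centring takes out that offset. Of 18603 probe sets 15886 were named through Entrez identifiers in RefSeq (GRCh38.p14), and 2717 are unnamed here. All probe sets were fitted with limma 3.58.1 in R 4.3.3 (lmFit, then eBayes with a prior variance that follows signal), without a block, with p-values adjusted by Benjamini and Hochberg's method across the whole array, called at 0.05. Adjusted p-values and SEs are from that fit unless another is named. It called 1192 probe sets (6.41%). With 2 arrays a group an exact two-sided permutation test cannot go below p = 0.333, so calls rest on spread pooled across probe sets, and the number of arrays limits the precision.

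The members, lists, fit and alternatives were chosen with earlier results of these data known. Genes were named by rule: DROSHA, called members, the 5 lower and 5 higher members with the smallest p, the brightest and dimmest member of each class, all H1 genes and, in each other list, called genes or else the 3 with the smallest p. Further members are given as ranges or beside their neighbours. Alternatives were a constant and a robust prior, filters on dim probe sets, further normalization, the replicate block, a threshold of 0.10, 1 probe set per gene, and fits without each array in turn.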

Additional observations from a re-analysis of the deposited data

How the results depend on the processing

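The count of 1192 called probe sets (581 higher, 611 lower, 48.7% higher) became 1 with a constant prior variance and 1824 at an adjusted p of 0.10, and 62.5% of 1195 calls were higher with each array centred on its median. Without 1 array, where the spread of the single array left is taken from the opposite group, it was 535 (without shNC replicate 1) to 1949 (without shDROSHA replicate 1), with 748 without shNC replicate 2. The 1 histone called became 0 with the constant prior, against 0.00538% of all probe sets (0 at an unadjusted p of 0.05, against 14.9%). The count was 0 with median centring, against 6.42% of all probe sets (4 at an unadjusted p of 0.05, against 19.7%). With quantile normalization again it was 3, H2AC18 and H2AC20 joining H2BC14, against 6.49% of all probe sets. Without 1 array it was 0 to 6: 0 without either shNC array (5 at an unadjusted p of 0.05 in each, against 13.5% of all probe sets without replicate 1 and 16.1% without replicate 2), 6 without shDROSHA replicate 1 (H2AC4, H2AC6, H2AC20, H2BC14, H4C11 and H4C12, all lower, against 10.5% of all probe sets), and 1 without shDROSHA replicate 2, H3C1, higher, against 6.71%. The members' median log2 fold change was -0.052 with median centring and -0.098 to -0.050 without 1 array (-0.050 without shNC replicate 2, -0.058 without shDROSHA replicate 2). The count of lower members was 26 to 31 of 39 under the scalings and without 1 array, 20 of 27 among probe sets above the median signal and 26 of 35 among those above the lower quartile. Every measured member had 1 probe set, so averaging probe sets changed nothing.

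With the replicate block 1 histone was called, H2BC14 (limma adjusted p = 0.0124), where 7.48% of all probe sets were. That fit called 1391 probe sets, against 1192, and NAP1L1 passed (limma adjusted p = 0.0193). Same-numbered arrays' deviations from their group means correlated at -0.022 over all probe sets. This single value cannot show whether those arrays shared a culture or batch, which the labels do not state. With median centring H2AC14 (0.029) and H3C2 (0.0044) turned positive. Without 1 array the direction turned for 14 members, H2BC4, H2BC7, H4C4, H4C5 and H4C8 and also H3C1 (-0.035 to 0.31), H3C10 (-0.0038 to 0.13), H4C1 (-0.011 to 0.11), H1-3 (-0.27 to 0.054), H1-5 (-0.065 to 0.067), H2AC8 (-0.14 to 0.20), H3C2 (-0.060 to 0.0024), H3C7 (-0.081 to 0.18) and H4C13 (-0.35 to 0.23). Of 429 alternative values of single named genes 17 turned direction, 15 of them without 1 array and 2 in the other settings. In those other settings 250 kept direction and side of the threshold, 17 lost the call and 4 gained it. The priors, the block, 1 probe set per gene and the looser threshold leave the log2 fold change unchanged, so direction could not turn there. Most named genes were not called, and those that stayed uncalled count as kept. Residual SD was 0.067 in the brightest and 0.213 in the dimmest of 5 bins. Causes were not tested.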
